A study of Mus musculus with 9 samples.

Results

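Cells sorted as TDC were compared with conventional T cells sorted from the same kind of spleen, in 3 TDC and 3 T cell libraries out of the 9 libraries of the series. The 6 libraries were taken by their labels alone. All came from untreated mice of 8 weeks with the genotype Homozygous Zbtb46-GFP, so the T cell controls carried the reporter too. In this reporter, green fluorescent protein marks use of the Zbtb46 locus, which is known from conventional dendritic cells (DC). Each library was a single pool of spleens, from 5 mice for replicate 1 and from 6 mice for replicates 2 and 3. The labels give RPMI with fetal bovine serum as the growth medium. The name TDC and the gates of the sort are not explained in the sources used here. RNA was read near the 3' end of transcripts and counted per gene. Values are CPM, counts relative to library size after TMM scaling, always in the order of replicates 1, 2 and 3. Log2 fold changes are TDC over T cells with their standard error, and a gene was called higher or lower at an adjusted p of 0.05 or less in edgeR's quasi-likelihood test over all genes tested. Since each library is a pool, p-values reflect the spread from pool to pool. In bulk RNA, fewer cells of a type and less RNA per cell cannot be told apart.

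A conventional T cell reads peptides through its T cell receptor, which signals through the CD3 chains, the kinases Lck and Zap70 and the adaptor Lat, and it circulates between blood and lymphoid tissue under factors such as Tcf7 and Klf2. The spleen also holds red pulp macrophages, which engulf aged red cells, break down heme through heme oxygenase and return iron to the blood through ferroportin. These macrophages depend on the factor Spic and are known for complement C1q, Vcam1 and Adgre1 (F4/80).

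The TDC libraries did not agree equally well with each other. Across tested genes the rank correlation was 0.968 between TDC 2 and TDC 3, but 0.914 and 0.929 between TDC 1 and these, against 0.958 to 0.962 among T cell libraries. Among genes at 50 CPM or more, 93.9% lay within 2-fold between TDC 2 and TDC 3, while 66.98% and 76.4% did so between TDC 1 and the other two. The departure of TDC 1 followed transcript length. Genes at 50 CPM or more in TDC were put into 4 equal bins by transcript length. For the bin with the shortest transcripts the median of TDC 1 was 0.839 above the mean of the other two on the log2 scale, and for the longest it was -0.680. The T 2 library was higher for short transcripts in the same way, at 0.482 against -0.124. The fold change of TDC over T cells followed length too. Its median was 0.10 in the shortest bin and 0.74 in the longest on the log2 scale, and with TDC 2 and TDC 3 alone, as a difference of mean log2 CPM, -0.23 and 0.94. The part of length in the results below was not tested. What TDC 1 and T 2 shared in their making was not tested. Calls of genes named in the text that change without TDC 1 or T 2 are given below.

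**Figure D1:**
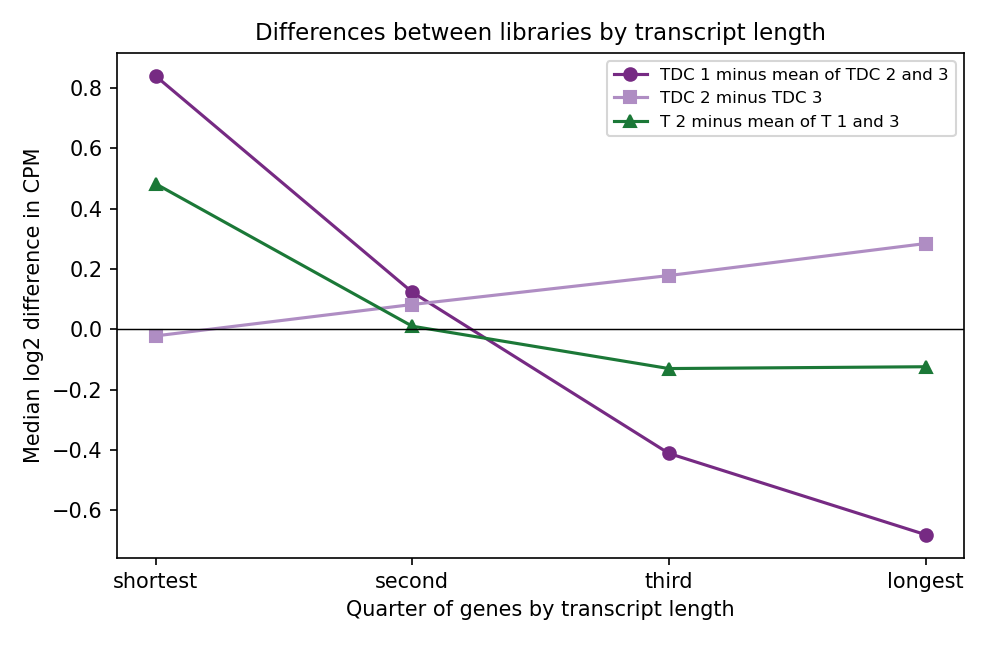
Median log2 difference in CPM between libraries (vertical axis) for 4 equal bins of genes by transcript length (horizontal axis), over 4122 genes at 50 CPM or more in TDC. The line of TDC 1 falls from 0.839 to -0.680, while TDC 2 minus TDC 3 stays between -0.0219 and 0.284.

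Depth ran from 10986544 to 18071425 reads in T cells and from 14594850 to 22677130 in TDC, and 3 reads over a group corresponded to 0.0558 and 0.0704 CPM, limits that cover counting error only. The labels were checked against marker genes. All 16 T cell markers were lower in TDC, with a summed level of 138 to 460.5 CPM against 11532 to 15504 CPM in T cells. All 12 macrophage markers were higher, at 46802 to 76328 CPM against 9.997 to 12.5 CPM. Markers of erythroid cells summed to 617 to 2088 CPM in TDC and at most 1.44 CPM in T cells. B cell markers summed to 75.05 to 136 CPM against 14.9 to 34.8 CPM, and neutrophil markers to 12.6 to 71.2 CPM against at most 0.213 CPM. Zbtb46, the reporter locus (chr2:181387762-181459426 in GRCm38), was read at 1.63, 1.18 and 1.03 CPM in T cells and 7.54, 5.92 and 10.4 CPM in TDC, low in all libraries but without overlap (log2 fold change 2.63 ± 0.64, adjusted p = 0.00907). A count over a locus that carries a reporter cannot show which part of it was read.

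Of 13582 genes tested, 3262 (24%) were higher in TDC and 2076 (15.3%) were lower. The 3 TDC libraries lay wholly above the 3 T libraries for 30.1% of the genes and wholly below for 23.9%. Of the called genes, 2457 were more than 4-fold higher and 1239 more than 4-fold lower. Reads were more concentrated in TDC, with 31.5% to 38.7% of them in the 100 most abundant genes against 21.9% to 24.9% in T cells. The split between higher and lower depended on the scaling: 61.1% of called genes were higher with TMM, 52.5% with upper-quartile factors and 39.2% with plain library size, which moved the median of all genes by -0.24 and -0.60 on the log2 scale. The median of all genes was 0.10 with TMM, and list medians below are to be read beside it. Under the 2 other scalings more genes were lower than higher in the lists of cytokine receptors and signalling, glycolysis, heat shock, the respiratory chain and the proteasome, which had more genes higher than lower with TMM. Cholesterol synthesis and uptake, with 3 higher and 1 lower with TMM, had 2 and 2 with upper-quartile factors and 0 and 3 with plain library size. In the other lists with any call with TMM, the direction with more calls was the same under the 3 scalings. Of 44 gene lists, 29 had more than 50% of their tested members called in the same direction.

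Ranked by the difference in CPM, the genes that rose included Itm2b, a membrane protein linked to amyloid processing, with 1308, 1744 and 1247 CPM in T cells and 14397, 10662 and 10201 CPM in TDC (log2 fold change 3.04 ± 0.36, adjusted p = 0.000164). Vcam1, an adhesion molecule of red pulp macrophages, had 0.425, 0 and 0 CPM in T cells and 10553, 15138 and 9976 CPM in TDC (log2 fold change 16.53 ± 1.14, adjusted p = 9.17e-06). Lyz2, lysozyme, had 0.142, 0 and 0 CPM in T cells and 4244, 6344 and 13231 CPM in TDC, with TDC 3 the highest. The genes that fell included Shisa5, a membrane protein induced by p53, with 4519, 5027 and 4145 CPM in T cells and 699, 452 and 489.5 CPM in TDC (log2 fold change -3.06 ± 0.35, adjusted p = 0.000127). Ms4a4b, a T cell membrane protein of the MS4A family, had 1818, 2681 and 1389 CPM in T cells and 44.4, 9.30 and 50.5 CPM in TDC (log2 fold change -5.82 ± 0.69, adjusted p = 0.000164). Arhgdib, an inhibitor of small GTPases in blood cells, had 1753, 3696 and 2490.01 CPM in T cells and 645, 317 and 441 CPM in TDC (log2 fold change -2.50 ± 0.42, adjusted p = 0.00128). In the 6 genes no TDC library overlapped a T library.

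**Figure D2:**
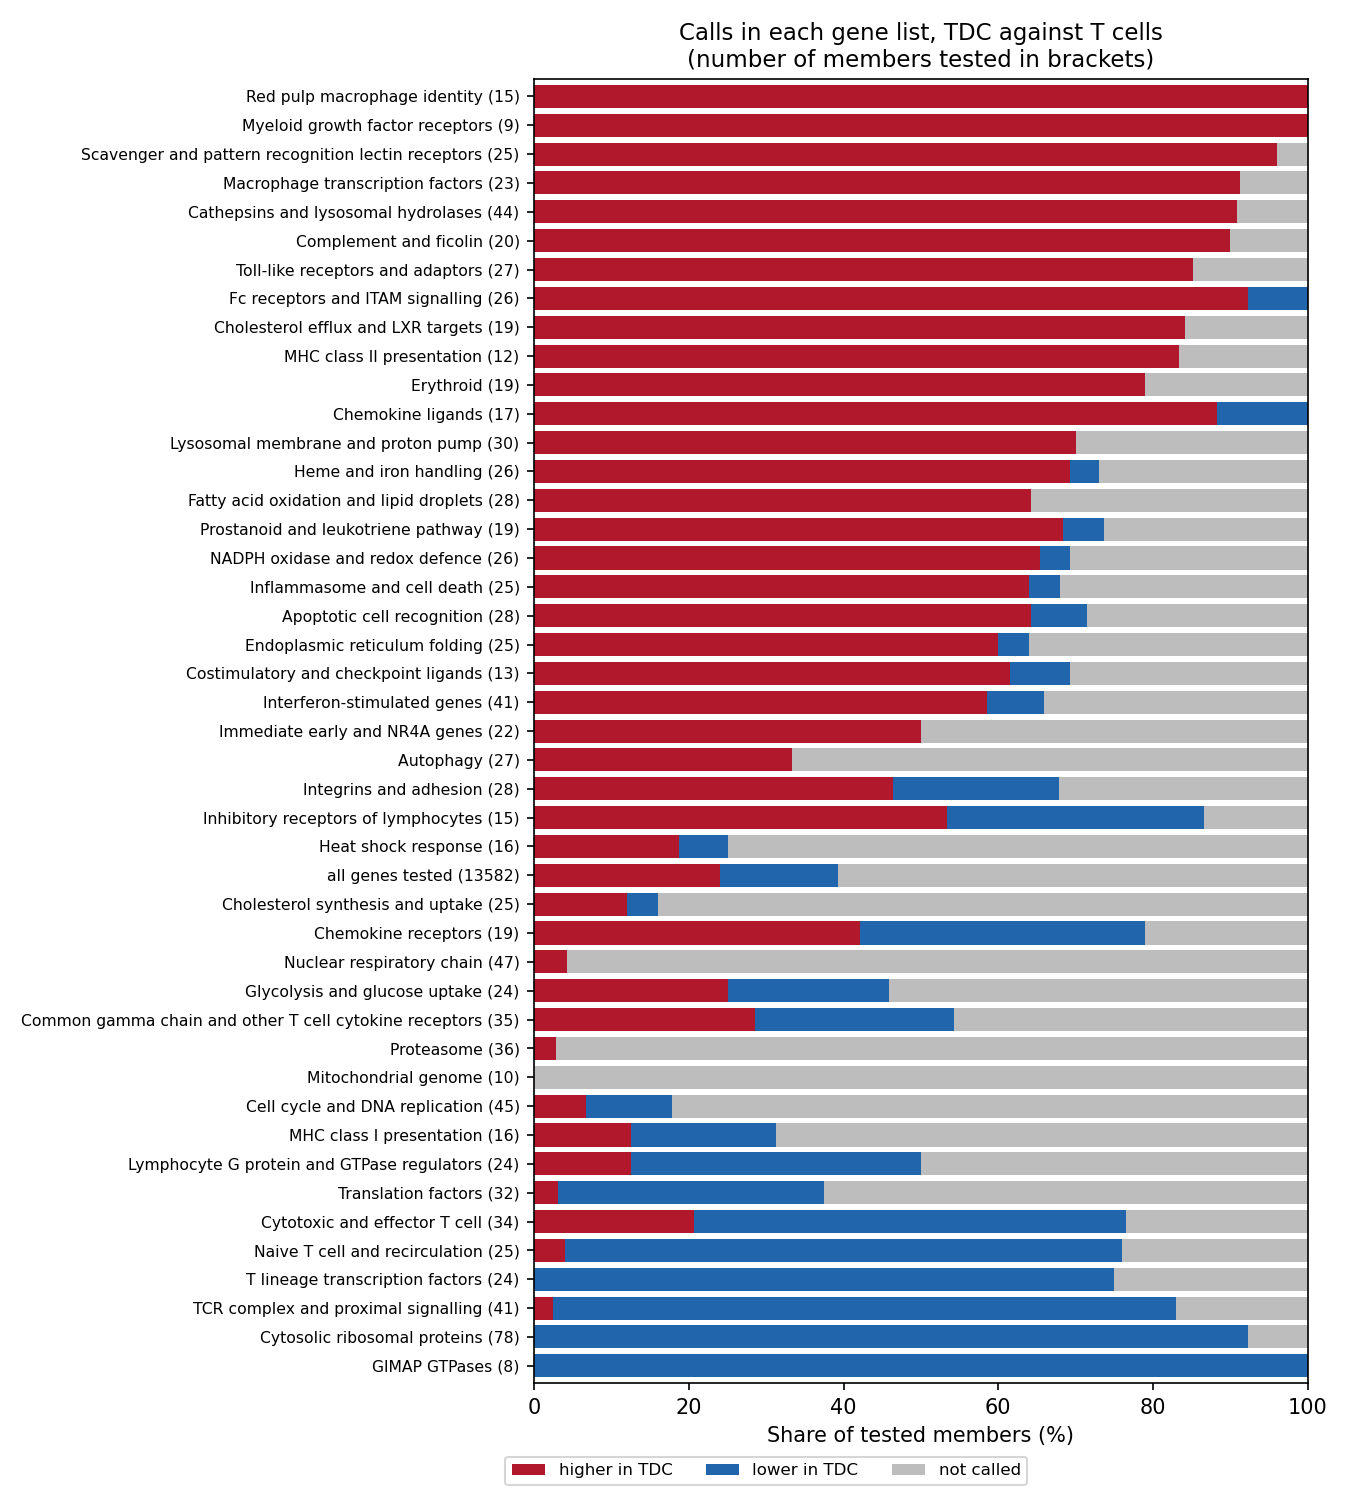
Share of tested members (horizontal axis, percent) called higher in TDC (red), lower in TDC (blue) or not called (grey) for each of 44 gene lists and for all genes tested, by edgeR's quasi-likelihood test at an adjusted p of 0.05. Red pulp macrophage identity genes and myeloid growth factor receptors are higher throughout, GIMAP GTPases are lower throughout, and the respiratory chain, mitochondrial genome and proteasome lists are almost wholly uncalled.

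The C1q genes rose and the CD3 genes fell as groups of neighbours. C1qa, C1qb and C1qc, which encode the chains of complement C1q, lie within 136880129-136898803 of chromosome 4 (GRCm38, GENCODE), and Cd3d, Cd3e and Cd3g, which encode CD3 chains, within 44969572-45009627 of chromosome 9. C1qc had no read in any T library and 11458, 6409.6 and 4897 CPM in TDC, at least 135977-fold higher (adjusted p = 8.68e-06). C1qb had 0.0709, 0 and 0 CPM in T cells and 15496, 7191 and 6298 CPM in TDC, and C1qa had 5841, 3345 and 2728 CPM in TDC (adjusted p = 5.91e-06 and 5.91e-06). Cd3e ran the other way, with 397, 325 and 343 CPM in T cells and 11.4, 4.93 and 10.7 CPM in TDC (log2 fold change -5.31 ± 0.42, adjusted p = 1.95e-05). Cd3g had 1203, 2137 and 1266 CPM in T cells and 45.1, 9.35 and 34.3 CPM in TDC, and Cd3d had 788, 1127 and 656 CPM in T cells and 25.3, 5.42 and 20.8 CPM in TDC (adjusted p = 0.000124 and 0.000107). For these genes no library of one group came near any of the other. Their promoters, the 250 bases before the start in RefSeq (GRCm38.p6), are shown because the members of each group moved together. Of the 6 genes, 5 matched an entry, and C1qa did not. They are written from 5' to 3' on the gene's strand, at chr4:136886201-136886450 (minus), chr4:136892915-136893164 (minus), chr9:44981536-44981785 (plus), chr9:45009612-45009861 (minus) and chr9:44980432-44980681 (minus). Capitals mark 4 short motifs found on either strand: GAGGAAGT, known from sites of PU.1, TGTGGT, known from sites of Runx factors, AGATAA, known from sites of GATA factors, and TATAAA, the letters of the TATA box.
C1qb: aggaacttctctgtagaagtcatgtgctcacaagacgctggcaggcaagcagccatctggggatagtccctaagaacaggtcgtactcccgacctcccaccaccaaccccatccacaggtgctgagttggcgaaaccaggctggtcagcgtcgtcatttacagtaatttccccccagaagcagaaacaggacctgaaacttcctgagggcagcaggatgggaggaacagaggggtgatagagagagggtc
C1qc: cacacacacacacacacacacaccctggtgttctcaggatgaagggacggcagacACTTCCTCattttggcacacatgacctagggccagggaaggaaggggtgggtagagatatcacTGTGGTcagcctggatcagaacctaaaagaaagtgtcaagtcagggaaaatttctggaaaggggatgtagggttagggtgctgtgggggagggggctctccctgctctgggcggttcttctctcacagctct
Cd3d: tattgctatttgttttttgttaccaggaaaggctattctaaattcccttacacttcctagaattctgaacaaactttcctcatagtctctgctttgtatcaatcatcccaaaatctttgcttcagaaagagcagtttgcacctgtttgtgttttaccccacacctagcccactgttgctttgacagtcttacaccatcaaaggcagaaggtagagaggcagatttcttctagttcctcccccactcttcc
Cd3e: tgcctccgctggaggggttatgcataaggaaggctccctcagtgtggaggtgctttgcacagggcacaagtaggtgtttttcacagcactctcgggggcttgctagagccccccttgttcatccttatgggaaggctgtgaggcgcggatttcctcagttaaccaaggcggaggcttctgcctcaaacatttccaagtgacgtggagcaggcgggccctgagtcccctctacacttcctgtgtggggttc
Cd3g: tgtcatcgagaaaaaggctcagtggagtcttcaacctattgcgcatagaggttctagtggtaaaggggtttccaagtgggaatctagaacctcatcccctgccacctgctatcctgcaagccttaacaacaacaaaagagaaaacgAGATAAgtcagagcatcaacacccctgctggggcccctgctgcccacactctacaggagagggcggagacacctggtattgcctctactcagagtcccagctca
The C1qc promoter held GAGGAAGT, on the opposite strand, and TGTGGT, and the Cd3g promoter held AGATAA. Of 27025 RefSeq promoters of the same length, 2.44% held GAGGAAGT and 14.2% held TGTGGT. The motif AGATAA was in 10.3% of them, and the TATA box letters, in none of the 5, were in 13%. The motif CANNTG, known from sites of E proteins, was searched as well and is not in capitals. It was in all 5 promoters and in 66% of all. These are matches of letters and say nothing about binding.

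The antigen receptor machinery of T cells was low in TDC nearly throughout. Of 41 tested genes for the receptor, its coreceptors and its first signalling steps, 33 were lower, 1 was higher and 7 were not called, with a median log2 fold change of -4.88. All 7 chain genes were lower, at a median of -5.66, as were 13 of 16 kinases and adaptors. Trac, the constant part of the receptor alpha chain, had 1165, 1607 and 1108 CPM in T cells and 33.1, 9.85 and 34.8 CPM in TDC (log2 fold change -5.64 ± 0.56, adjusted p = 6.29e-05). Lck, the kinase that starts the signal, had 2003, 2436 and 2615 CPM in T cells and 54.2, 25.6 and 89.4 CPM in TDC (log2 fold change -5.38 ± 0.53, adjusted p = 6.06e-05). Zap70, the kinase recruited to the phosphorylated chains, had 55.9, 60.7 and 85.3 CPM in T cells and 2.60, 2.55 and 3.74 CPM in TDC (log2 fold change -4.50 ± 0.40, adjusted p = 3.25e-05). In each case TDC 3 was the highest TDC library, yet far below the lowest T library. Cd247, the zeta chain, had log2 fold change -5.66, and Sh2d2a, an adaptor of Lck, -5.18. Reads of the near-identical Trbc1 and Trbc2 cannot be assigned with certainty.

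The second messengers further down the same pathway were less uniform: 4 of 8 were lower, and the median was -1.53. Several parts that T cells share with other blood cells were not lower. Lcp2 (SLP-76), the adaptor that links Zap70 or Syk to phospholipase C gamma, had 372, 429.98 and 478 CPM in T cells and 819, 949 and 735 CPM in TDC and was the single member called higher (log2 fold change 0.97 ± 0.29, adjusted p = 0.0248), although the call was lost without T 1, T 2, T 3 or TDC 2 (adjusted p = 0.0561 to 0.0892). Fyb, an adaptor of adhesion signalling, had 577, 429 and 477 CPM in T cells and 587, 659.8 and 708 CPM in TDC (log2 fold change 0.40 ± 0.29, adjusted p = 0.306). Fyn, a Src family kinase, had 438, 362 and 625 CPM in T cells and 319, 372 and 309.9 CPM in TDC (log2 fold change -0.51 ± 0.31, adjusted p = 0.227). Every TDC library was above every T library for Lcp2 and Fyb, and the groups overlapped for Fyn. Cd4, the class II coreceptor, had 268, 137 and 245 CPM in T cells and 57.7, 208 and 244 CPM in TDC (log2 fold change -0.35 ± 0.50, adjusted p = 0.616), with TDC 1 low and the other two within the range of the T libraries. By contrast Cd8a had 428, 643 and 502 CPM in T cells and 32.2, 14.2 and 71.8 CPM in TDC (log2 fold change -3.73 ± 0.57, adjusted p = 0.000731). Icos, a costimulator, was lower by a small margin, with 123, 156 and 107 CPM in T cells and 68.2, 45.05 and 75.6 CPM in TDC (log2 fold change -1.04 ± 0.32, adjusted p = 0.0274), and the call was lost without T 1, T 2 or TDC 2 (adjusted p = 0.0631 to 0.100).

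Where the T cell kinases were low, a second set of receptor-proximal genes was high. It holds Fc receptors and the adaptors and kinases through which they and related myeloid receptors signal. These receptors use the immunoreceptor tyrosine-based activation motif (ITAM), which is not confined to them. Of 26 tested members, 24 were higher and 2 lower, at a median of 8.94. Fgr, a myeloid Src family kinase, had 2.62, 4.89 and 3.25 CPM in T cells and 531, 607 and 488 CPM in TDC (log2 fold change 7.23 ± 0.41, adjusted p = 6.46e-06). Syk, the relative of Zap70, had 0, 0 and 0.567 CPM in T cells and 194, 715 and 383 CPM in TDC (log2 fold change 11.01 ± 1.10, adjusted p = 6.73e-05). The 3 TDC libraries were alike for Fgr, and TDC 1 was the lowest for Syk. Blnk, an adaptor known from B cells, had no read in any T library and 189, 159.7 and 139 CPM in TDC; the B cell marker sum is given above and its part was not tested. Of the phospholipases, Plcg1 had 61.8, 55.4 and 102 CPM in T cells and 7.36, 20.5 and 18.97 CPM in TDC (log2 fold change -2.22 ± 0.46, adjusted p = 0.00393) and Plcg2 had 1.06, 3.41 and 0.516 CPM in T cells and 49.7, 239 and 157 CPM in TDC (log2 fold change 6.46 ± 0.85, adjusted p = 0.000309), so the order of the groups was the opposite for the 2 genes. Tyrobp and Fcer1g, the ITAM adaptors, ran the same way: Tyrobp had 4.40, 4.69 and 3.82 CPM in T cells and 3259.8, 1232 and 1147 CPM in TDC, and Fcer1g had 5.74, 10.5 and 6.44 CPM in T cells and 3747, 1553 and 1256 CPM in TDC. The members called against the list were Hcst (log2 fold change -2.36 ± 0.46, adjusted p = 0.00295), the DAP10 adaptor of lymphocyte receptors, and Cblb (log2 fold change -1.96 ± 0.38, adjusted p = 0.00286), a ubiquitin ligase that restrains T cell activation.

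**Figure D3:**
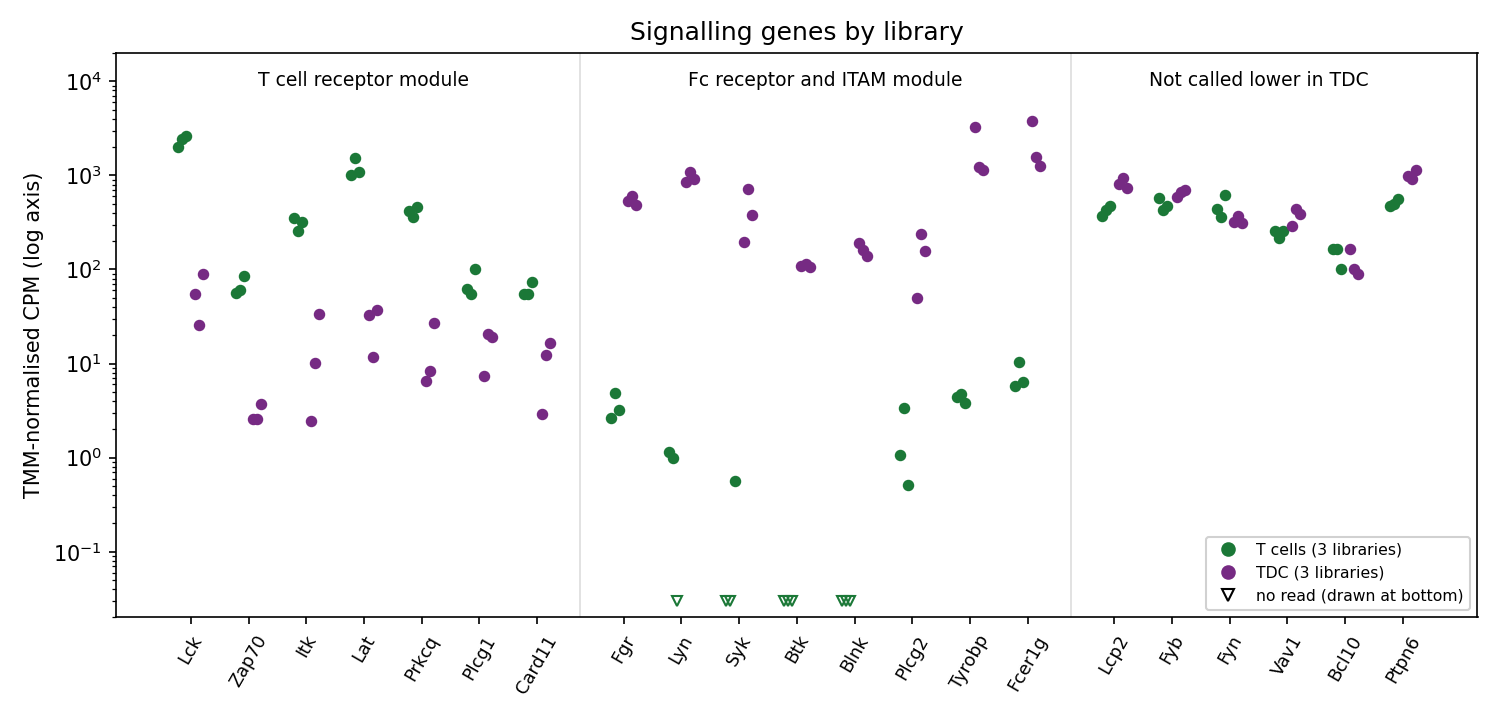
TMM-normalised CPM on a log axis for signalling genes in the 3 T cell libraries (green) and 3 TDC libraries (purple), 1 point per library, with open triangles for libraries without a read. T cell receptor kinases are above 50 CPM in every T library and lower in TDC, the Fc receptor and ITAM genes run the other way, and the TDC points of Lcp2, Fyb, Vav1 and Ptpn6 lie above the T points, while those of Fyn and Bcl10 overlap them.

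Genes of naive T cell homing and quiescence were also low, with 18 of 25 lower, 1 higher and a median of -3.09. Ccr7, the receptor that guides cells into lymphoid tissue, had 1521, 1131 and 942 CPM in T cells and 69.8, 57.9 and 125 CPM in TDC (log2 fold change -3.83 ± 0.42, adjusted p = 0.000107). Lef1, a naive T cell factor, had 596, 763 and 588 CPM in T cells and 17.2, 5.87 and 24.5 CPM in TDC (log2 fold change -5.36 ± 0.55, adjusted p = 7.85e-05). Klf2, which maintains the homing receptor S1pr1, was not called and had 658, 833 and 623 CPM in T cells and 932, 667 and 412 CPM in TDC, with overlapping groups (log2 fold change -0.07 ± 0.36, adjusted p = 0.891). Slfn2, a quiescence factor, overlapped too, with 433, 736 and 475 CPM in T cells and 614, 430.5 and 423 CPM in TDC (log2 fold change -0.16 ± 0.33, adjusted p = 0.728). Actn1, an actin crosslinker of naive T cells and many other cells, was higher (log2 fold change 1.25 ± 0.33, adjusted p = 0.0137), a call lost without T 3 or TDC 2 (adjusted p = 0.0519 to 0.0573). All 8 GIMAP GTPases, which support lymphocyte survival, were lower at a median of -5.67. They lie together on chromosome 6 (GRCm38 48647234-48770851). Gimap3 had 1084, 1245 and 1352 CPM in T cells and 11.6, 11.1 and 35.9 CPM in TDC (log2 fold change -5.98 ± 0.57, adjusted p = 5.24e-05), and Gimap7 had 219, 419.96 and 249 CPM in T cells and 0.180, 0.221 and 4.41 CPM in TDC (log2 fold change -7.53 ± 1.09, adjusted p = 0.000532), with nearly all of its TDC reads in TDC 3.

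Of 24 tested T lineage transcription factors, 18 were lower and 6 were not called (median -3.15). Ets1, a factor of T and B lymphocytes, had 677, 629.9 and 698 CPM in T cells and 43.2, 64.6 and 61.03 CPM in TDC (log2 fold change -3.57 ± 0.32, adjusted p = 3.41e-05). Stat4, which carries interleukin 12 signals, had 122, 103 and 99.5 CPM in T cells and 14.5, 11.6 and 16.4 CPM in TDC (log2 fold change -2.94 ± 0.32, adjusted p = 9.59e-05). Nfatc1, a calcium-dependent factor of many blood cells, had 103, 77.8 and 111 CPM in T cells and 45.4, 119.9 and 91.9 CPM in TDC (log2 fold change -0.18 ± 0.38, adjusted p = 0.737), and Nfatc3 had 95.1, 68.9 and 75.01 CPM in T cells and 56.9, 135 and 84.04 CPM in TDC (log2 fold change 0.21 ± 0.36, adjusted p = 0.684). The groups were apart for the first 2 and overlapped for both NFAT genes. On the other side, 21 of 23 macrophage transcription factors were higher (median 6.02). Spi1 (PU.1), the master factor of myeloid cells, had no read in any T library and 493, 325 and 354 CPM in TDC, at least 6999-fold higher (adjusted p = 7.05e-06). Spic, the red pulp macrophage factor, had 0.0709, 0 and 0 CPM in T cells and 4470.2, 2229 and 1954 CPM in TDC. Irf8, a factor of macrophages and dendritic cells, had 5.46, 9.92 and 10.98 CPM in T cells and 625, 942 and 775 CPM in TDC (log2 fold change 6.47 ± 0.44, adjusted p = 8.68e-06).

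Levels of T-enriched genes in TDC were read from 393 genes chosen by their levels in the T and DC libraries. These had at least 10 CPM in T cells and at most 1/8 of that level in the series' DC. The TDC libraries entered only the scaling of those levels, and the T libraries that chose the genes are also those TDC are compared with. Of the 393 genes, 343 were lower in TDC, 41 were not called and 9 were higher, which leaves 50 that were not lower. The choice did not set the genes against macrophages, so a level in TDC need not be T cell expression. The median gene stood at 3.87% of its T cell level, with quartiles of 2.18% and 13.6%. In 281 genes the TDC level was under 10% of the T level, in 69 it was 10% to 50% and in 43 it was 50% or more. The residual level differed between libraries: its median was 2.11% in TDC 2, 3.57% in TDC 1 and 5.97% in TDC 3, and the 16 T cell markers gave the same order, at 1.03%, 2.60% and 3.03%. The part of T cells within the sorted TDC in these residual levels was not tested.

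Of the 9 T-enriched genes that were higher in TDC, 4 rose more than 8-fold. Timp2, an inhibitor of matrix metalloproteinases, had 41.8, 82.9 and 47.4 CPM in T cells and 775, 1094 and 698 CPM in TDC (log2 fold change 3.90 ± 0.40, adjusted p = 7.84e-05), and its mean in DC was 2.90 CPM. Pld3, a lysosomal nuclease, had 298, 277 and 268 CPM in T cells and 3361, 2916 and 2102 CPM in TDC (log2 fold change 3.31 ± 0.34, adjusted p = 7.59e-05). Adcy3, an adenylate cyclase, had 17.6, 11.996 and 16.4 CPM in T cells and 92.1, 301 and 143 CPM in TDC (log2 fold change 3.54 ± 0.48, adjusted p = 0.000360). Enpp1, an ectoenzyme that hydrolyses extracellular nucleotides, had 12.5, 11.6 and 11.8 CPM in T cells and 201, 119 and 94.9 CPM in TDC (log2 fold change 3.53 ± 0.38, adjusted p = 9.19e-05). In these 4 genes each TDC library was more than 4-fold above every T library. Smaller differences in the same direction were found for Mcoln2, a lysosomal cation channel (log2 fold change 2.69 ± 0.34, adjusted p = 0.000220), Iigp1, an interferon-inducible GTPase (log2 fold change 2.54 ± 0.37, adjusted p = 0.000537), Ephx1, an epoxide hydrolase (log2 fold change 1.62 ± 0.30, adjusted p = 0.00209), Pkp4, a plakophilin (log2 fold change 1.43 ± 0.39, adjusted p = 0.0154), and Cd84, a SLAM family receptor (log2 fold change 0.87 ± 0.30, adjusted p = 0.0405). The call of Pkp4 was lost without T 3 (adjusted p = 0.0581), and that of Cd84 without T 2, T 3, TDC 1, TDC 2 or TDC 3 (adjusted p = 0.0508 to 0.139). Slc12a7, a potassium chloride cotransporter (log2 fold change 1.12 ± 0.55, adjusted p = 0.133), and Golm1, a Golgi membrane protein (log2 fold change 0.67 ± 0.43, adjusted p = 0.254), were not called. Without TDC 1, Slc12a7 was higher (log2 fold change 1.53, adjusted p = 0.0251). At the other end, Samd3 had 35.2, 53.02 and 21.7 CPM in T cells and 0, 0.111 and 0 CPM in TDC (adjusted p = 3.67e-05) and Fgf13, an intracellular fibroblast growth factor, 29.6, 49.1 and 60.4 CPM in T cells and 0, 0.443 and 0 CPM in TDC (log2 fold change -7.99 ± 0.93, adjusted p = 0.000149), so for these 2 genes TDC 1 and TDC 3 had no read.

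**Figure D4:**
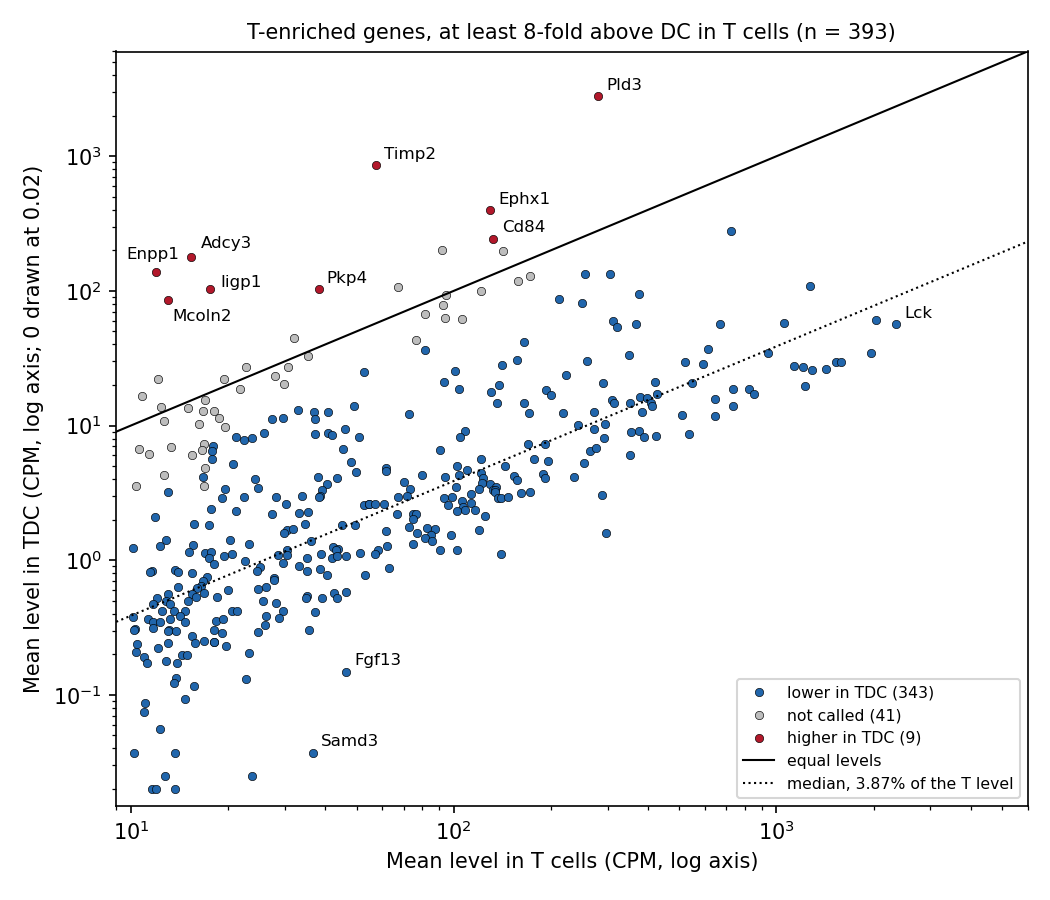
Mean level in TDC (vertical axis, CPM, log axis) against mean level in T cells (horizontal axis, CPM, log axis) for 393 genes at least 8-fold above DC in T cells, coloured by call. The dotted line marks the median of 3.87% of the T level, and 9 named genes called higher lie above the line of equal levels.

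Cytokine receptors changed in both directions under every scaling. Of 35 genes of T cell cytokine receptors and their signalling, 10 were higher and 9 lower, beside 24% and 15.3% of all genes tested. Of the 21 receptor genes, 7 were higher and 6 lower (median 0.27), and those lower included 3 chains known from T cell survival and growth. Il7r, needed for T cell survival, had 514, 396 and 317 CPM in T cells and 6.92, 3.27 and 34.2 CPM in TDC (log2 fold change -4.79 ± 0.82, adjusted p = 0.00138). Il2rb had 122, 132 and 179 CPM in T cells and 0.449, 4.65 and 9.86 CPM in TDC (log2 fold change -4.84 ± 0.81, adjusted p = 0.00128). Il2rg, the common gamma chain, was lower too, with 655, 929 and 629 CPM in T cells and 157, 133 and 193 CPM in TDC (log2 fold change -2.20 ± 0.32, adjusted p = 0.000569). For Il7r and Il2rb the TDC libraries differed among themselves by 10.5-fold and 21.96-fold. Il10ra, the binding chain of the interleukin 10 receptor, was higher, with 12.9, 6.47 and 16.2 CPM in T cells and 271, 546 and 459 CPM in TDC (log2 fold change 5.17 ± 0.48, adjusted p = 4.49e-05). Its partner Il10rb (log2 fold change 2.66 ± 0.30, adjusted p = 0.000111) and Ifnar2, of the type I interferon receptor (log2 fold change 2.43 ± 0.30, adjusted p = 0.000188), were higher as well. Jak1, shared by many of these receptors, was not called, with 604, 425 and 659.5 CPM in T cells and 157, 708 and 419 CPM in TDC and TDC 1 far below the other two (log2 fold change -0.40 ± 0.49, adjusted p = 0.561). All 9 tested myeloid growth factor receptors were higher. Csf1r, the receptor on which macrophages depend, had 0.284, 0 and 3.09 CPM in T cells and 3537, 11372 and 7271 CPM in TDC (log2 fold change 12.65 ± 1.51, adjusted p = 0.000178). Csf3r, the granulocyte colony stimulating factor receptor, had no read in any T library and 82.2, 142 and 121 CPM in TDC, at least 2062-fold higher (adjusted p = 1.20e-05). Neutrophils also use it, and the part of the neutrophil markers given above was not tested.

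Most genes by which phagocytes recognise particles and dying cells were higher in TDC. All 15 red pulp macrophage identity genes were higher, as were 18 of 20 complement and ficolin genes, 24 of 25 scavenger receptors and lectins, and 18 of 28 genes of apoptotic cell recognition. Cd5l, a secreted macrophage protein that binds lipids, had no read in any T library and 3879, 2954 and 2192 CPM in TDC, at least 53907-fold higher (adjusted p = 7.05e-06). Adgre1 had no read in any T library and 1516, 3124 and 2005 CPM in TDC, at least 39692-fold higher (adjusted p = 8.08e-06). Timd4, a receptor for phosphatidylserine on dying cells, had no read in any T library and 422, 442 and 423 CPM in TDC, at least 7688-fold higher (adjusted p = 6.46e-06). The 3 TDC libraries were within a factor of 1.05 for Timd4. Within the recognition list 11 of 14 receptors for phosphatidylserine and other ligands were higher, and 3 of 8 genes of the engulfment machinery; this difference was not tested. Rac1, which drives actin in many cell types, was not called (log2 fold change 0.50 ± 0.31, adjusted p = 0.224). Itgb3, the integrin beta 3 chain, was lower (log2 fold change -4.23 ± 0.69, adjusted p = 0.00105).

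Genes that sense microbes were higher as a group. All 16 tested receptor genes of the Toll-like receptor list were higher, and 7 of 11 adaptors. Tlr4, the receptor for lipopolysaccharide, had no read in any T library and 166, 342 and 319.5 CPM in TDC, at least 4944-fold higher (adjusted p = 1.18e-05). Unc93b1, which carries Toll-like receptors to endosomes, had 7.37, 13.3 and 15.3 CPM in T cells and 2158, 2514 and 1963 CPM in TDC (log2 fold change 7.52 ± 0.47, adjusted p = 7.05e-06). Myd88, the adaptor shared by most of these receptors, had 133, 133 and 108 CPM in T cells and 209.99, 171 and 181 CPM in TDC (log2 fold change 0.59 ± 0.27, adjusted p = 0.114), without a call although the groups did not overlap. Of the inflammasome and cell death list, 16 of 25 were higher. Il1b had no read in any T library and 555, 147 and 277 CPM in TDC, at least 5844-fold higher (adjusted p = 3.68e-05). Bcl2, a survival protein of lymphocytes, was lower, with 409, 312 and 221 CPM in T cells and 10.8, 6.48 and 26.6 CPM in TDC (log2 fold change -4.43 ± 0.56, adjusted p = 0.000258), whereas its relative Mcl1 was not called (log2 fold change 0.75 ± 0.29, adjusted p = 0.0695).

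Of heme and iron genes, 18 of 26 were higher and 1 was lower. Hmox1, heme oxygenase 1, had 1.21, 3.80 and 4.85 CPM in T cells and 17852, 10212 and 7736 CPM in TDC (log2 fold change 11.81 ± 0.80, adjusted p = 8.68e-06). Slc40a1, ferroportin, had 0, 1.38 and 0 CPM in T cells and 9549, 18572 and 11022 CPM in TDC (log2 fold change 14.68 ± 1.47, adjusted p = 6.75e-05). Fth1, the ferritin heavy chain, had 1145, 2163 and 1225 CPM in T cells and 16518, 9767 and 6707 CPM in TDC (log2 fold change 2.86 ± 0.46, adjusted p = 0.00105). TDC 1 was the highest library for Hmox1 and Fth1 and the lowest for Slc40a1. All 5 genes of heme breakdown were higher, but Pcbp2, an iron chaperone and RNA-binding protein, was lower (log2 fold change -1.35 ± 0.36, adjusted p = 0.0135). The call of Pcbp2 was lost without T 2 (adjusted p = 0.0627). Erythroid genes were higher in 15 of 19 cases. Alas2, the erythroid enzyme of heme synthesis, had 0.0709, 0 and 0 CPM in T cells and 60.2, 65.3 and 40.1 CPM in TDC (adjusted p = 9.17e-06), and Hba-a1, a globin gene whose reads overlap those of its near-copy Hba-a2, had 0.213, 0.0987 and 0 CPM in T cells and 347, 175 and 105 CPM in TDC. Gata1, the erythroid factor, had 7.66, 5.73 and 12.9 CPM in T cells and 0.0898, 5.15 and 2.91 CPM in TDC and was not called (log2 fold change -1.67 ± 0.99, adjusted p = 0.213). The source of the erythroid reads was not tested.

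Lysosomal genes were higher in TDC as a group. Of 44 cathepsins and hydrolases, 40 were higher (median 3.35), and of 30 membrane and proton pump genes, 21 (median 1.87). Ctsb, cathepsin B, had 276, 269 and 284 CPM in T cells and 27075, 31598 and 20957 CPM in TDC (log2 fold change 6.59 ± 0.42, adjusted p = 7.05e-06). Lamp1, a coat protein of the lysosomal membrane, had 213, 207 and 254 CPM in T cells and 2695, 2849 and 2601 CPM in TDC (log2 fold change 3.59 ± 0.32, adjusted p = 3.44e-05). Grn, progranulin, had 12.1, 15.1 and 19.5 CPM in T cells and 3139, 3249 and 2554 CPM in TDC (log2 fold change 7.58 ± 0.43, adjusted p = 6.46e-06). The TDC libraries were close for Lamp1, within a factor of 1.10. Of the pump subunits, 9 of 16 were higher. Atp6v1d, a subunit that was not called, had 177, 339 and 217 CPM in T cells and 289.6, 184 and 181 CPM in TDC (log2 fold change -0.16 ± 0.35, adjusted p = 0.748). Of 27 genes of autophagy, which feeds the lysosome, 9 were higher and 0 lower (median 0.66), beside 24% and 15.3% of all genes tested. Gabarapl1, an ATG8 protein of the autophagosome, had 2.98, 3.01 and 1.75 CPM in T cells and 129, 116 and 87.6 CPM in TDC (log2 fold change 5.43 ± 0.41, adjusted p = 1.29e-05), and Optn, a cargo receptor, 2.27, 2.07 and 1.08 CPM in T cells and 54.7, 55.9 and 47.9 CPM in TDC (log2 fold change 4.87 ± 0.44, adjusted p = 3.60e-05). Map1lc3b (LC3B) was not called, with 328, 325 and 285 CPM in T cells and 319.6, 202 and 226 CPM in TDC (log2 fold change -0.33 ± 0.30, adjusted p = 0.417). Without TDC 1, 10 autophagy genes were called higher and 2 lower, and with plain library size 6 and 5.

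Genes of cholesterol export were higher as a group. Of the cholesterol efflux genes and targets of the liver X receptor (LXR), 16 of 19 were higher (median 4.06), while of the genes of cholesterol synthesis and uptake 3 of 25 were higher and 1 lower (median 0.34). The difference between these lists was not tested. Apoe, the lipid carrier, had 7.02, 6.91 and 15.4 CPM in T cells and 17717, 12100.3 and 13409 CPM in TDC (log2 fold change 10.52 ± 0.61, adjusted p = 6.46e-06). Nr1h3, LXR alpha, had 0.851, 4.79 and 2.47 CPM in T cells and 1346, 846 and 968 CPM in TDC (log2 fold change 8.58 ± 0.69, adjusted p = 2.08e-05). Nr1h2, LXR beta, had 108, 87.9 and 145 CPM in T cells and 95.6, 122 and 100.03 CPM in TDC and was not called (log2 fold change -0.10 ± 0.30, adjusted p = 0.817). Lpl, lipoprotein lipase, had no read in any T library and 343, 393 and 331 CPM in TDC, at least 6369.9-fold higher (adjusted p = 6.46e-06). Of fatty acid oxidation and lipid droplet genes, 18 of 28 were higher. Plin2, which coats lipid droplets, had 20.6, 18.2 and 26.2 CPM in T cells and 836, 463 and 321 CPM in TDC (log2 fold change 4.64 ± 0.45, adjusted p = 5.45e-05), and Cd36, a fatty acid transporter, had no read in any T library and 31.5, 46.99 and 61.9 CPM in TDC, at least 839-fold higher (adjusted p = 3.32e-05). Acaa2, the last enzyme of beta oxidation, was not called (log2 fold change -0.55 ± 0.31, adjusted p = 0.196), but without TDC 1 it was lower (log2 fold change -0.81, adjusted p = 0.0403).

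In glycolysis and glucose uptake, some related enzymes and transporters ran in opposite directions. Of 24 genes, 6 were higher and 5 lower (median 0.01), and 5 and 10 with plain library size. Over all genes tested 24% were higher and 15.3% lower, so the counts of this list with TMM were near those of all genes. Hk1, the common hexokinase, had 68.3, 46.8 and 87.4 CPM in T cells and 2.78, 24.2 and 19.3 CPM in TDC and was lower (log2 fold change -2.12 ± 0.66, adjusted p = 0.0283). Hk3, a myeloid hexokinase, had 1.13, 0 and 0 CPM in T cells and 150.1, 345 and 231 CPM in TDC (log2 fold change 9.50 ± 1.16, adjusted p = 0.000203), and Hk2 had 0.142, 1.53 and 0.258 CPM in T cells and 26.9, 38.2 and 21.6 CPM in TDC (log2 fold change 5.43 ± 0.83, adjusted p = 0.000743). Hk1 was below and Hk2 and Hk3 were above the T libraries in every TDC library. The transporter Slc2a3 had 32.8, 23.005 and 40.99 CPM in T cells and 2.69, 11.3 and 13.9 CPM in TDC (log2 fold change -1.79 ± 0.58, adjusted p = 0.0335), and Slc2a6 had no read in any T library and 9.52, 9.35 and 9.11 CPM in TDC, at least 167-fold higher (adjusted p = 0.000295). The call of Hk1 was lost without T 1, T 3 or TDC 3 (adjusted p = 0.0614 to 0.0746), and that of Slc2a3 without T 1, T 3 or TDC 2 (adjusted p = 0.0558 to 0.0920). Ldhb, a lactate dehydrogenase chain, was lower (log2 fold change -3.67 ± 0.48, adjusted p = 0.000295), and Ldha was not called (log2 fold change -0.87 ± 0.34, adjusted p = 0.0645). Without TDC 1, Ldha was lower (log2 fold change -1.17, adjusted p = 0.0104). Aldoa, the aldolase of glycolysis, had 461, 723 and 594 CPM in T cells and 1008, 586 and 525 CPM in TDC with overlap (log2 fold change 0.25 ± 0.35, adjusted p = 0.611). Of the genes that defend against oxidation, 13 of 20 were higher, among them Gsr, glutathione reductase (log2 fold change 2.74 ± 0.29, adjusted p = 8.45e-05). Of the 6 genes of the phagocyte oxidase, 4 were higher and 1 lower (median 2.21). The member lower was Rac2, a GTPase, with 1351, 2557 and 1915 CPM in T cells and 571, 416 and 462 CPM in TDC (log2 fold change -2.01 ± 0.35, adjusted p = 0.00162).

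Few nuclear genes of the respiratory chain were called. Of 47 tested, 2 were higher and 0 lower in edgeR's test, against 39.3% called in either direction among all genes, and the median was -0.31. At an unadjusted p under 0.05, 2 were lower, and DESeq2 and limma-voom called 0 and 1 lower. Of 36 proteasome genes 1 was called, and it was higher (median -0.25). Of 10 genes of the mitochondrial genome 0 were called (median -0.98), 0 at an unadjusted p under 0.05, with 0 lower by DESeq2 and 1 by limma-voom. Atp5b, an ATP synthase subunit, had 1186, 1466 and 1443 CPM in T cells and 1451, 1019 and 1040.3 CPM in TDC (log2 fold change -0.22 ± 0.31, adjusted p = 0.609). The mitochondrial gene mt-Cytb had 6011, 5438 and 2348 CPM in T cells and 4141, 845 and 1720 CPM in TDC (log2 fold change -1.04 ± 0.59, adjusted p = 0.191), and without TDC 1 was lower (log2 fold change -1.83, adjusted p = 0.0160). For both, the groups overlapped, and TDC 1 was the highest TDC library. These counts moved with TDC 1. Without it, 17 respiratory chain, 13 proteasome and 6 mitochondrial genes were called lower, with medians of -0.76, -0.58 and -1.70. Without both TDC 1 and T 2 the numbers were 12, 8 and 1, and with plain library size and all libraries 25, 20 and 5. The transcripts of these lists are short, with median lengths of 1232, 1851 and 1091 bases against 3068 over all genes tested.

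Ribosomal protein genes, in contrast, were lower with or without TDC 1. Of 78 tested, 72 were lower, with a median of -1.87, and 77 with plain library size and 75 with upper-quartile factors. Without TDC 1, 76 were lower (median -2.28), and without both TDC 1 and T 2, 75. Rps19, of the small subunit, had 799, 1227 and 828 CPM in T cells and 186, 76.8 and 139 CPM in TDC (log2 fold change -2.83 ± 0.41, adjusted p = 0.000534), and Rps27 had 572, 736 and 536 CPM in T cells and 139, 59.4 and 72.4 CPM in TDC (log2 fold change -2.77 ± 0.40, adjusted p = 0.000526). Rps9 was not called, with 771, 1159 and 720.1 CPM in T cells and 668, 277 and 306 CPM in TDC (log2 fold change -1.08 ± 0.41, adjusted p = 0.0628), and even there every TDC library was below every T library. Without TDC 1, Rps9 was lower (log2 fold change -1.59, adjusted p = 0.00406). The summed level of the list was 28697, 41398 and 29097 CPM in T cells and 12608, 5567 and 7204 CPM in TDC, with T 2 and TDC 1 the highest of their groups. The median transcript length of this list was 1076 bases. Of 32 translation factors, 11 were lower and 1 was higher. The member called higher was Eif4ebp1, an inhibitor of translation initiation, with 12.1, 17.97 and 11.1 CPM in T cells and 125, 66.96 and 61.9 CPM in TDC (log2 fold change 2.62 ± 0.40, adjusted p = 0.000771). Npm1, a nucleolar protein of ribosome assembly, was lower (log2 fold change -1.91 ± 0.32, adjusted p = 0.00110).

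Folding in the endoplasmic reticulum went the other way, with 15 of 25 genes higher and 1 lower (median 1.43). Pdia6, a disulfide isomerase, had 184, 255 and 219.6 CPM in T cells and 1560.3, 968 and 806 CPM in TDC (log2 fold change 2.34 ± 0.36, adjusted p = 0.000739). Canx, calnexin, had 185, 119 and 135 CPM in T cells and 599, 1169 and 832 CPM in TDC (log2 fold change 2.57 ± 0.37, adjusted p = 0.000497), with TDC 1 the lowest TDC library. Trib3, a stress-induced pseudokinase, was lower, with 14.8, 5.58 and 9.18 CPM in T cells and 2.78, 0.332 and 0.598 CPM in TDC (log2 fold change -3.01 ± 0.89, adjusted p = 0.0235), and Atf4 was not called (log2 fold change -1.01 ± 0.42, adjusted p = 0.0805). Without TDC 1, Atf4 was lower (log2 fold change -1.63, adjusted p = 0.00160). The call of Trib3 was lost without T 1, TDC 2 or TDC 3 (adjusted p = 0.0598 to 0.0837).

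**Figure D5:**
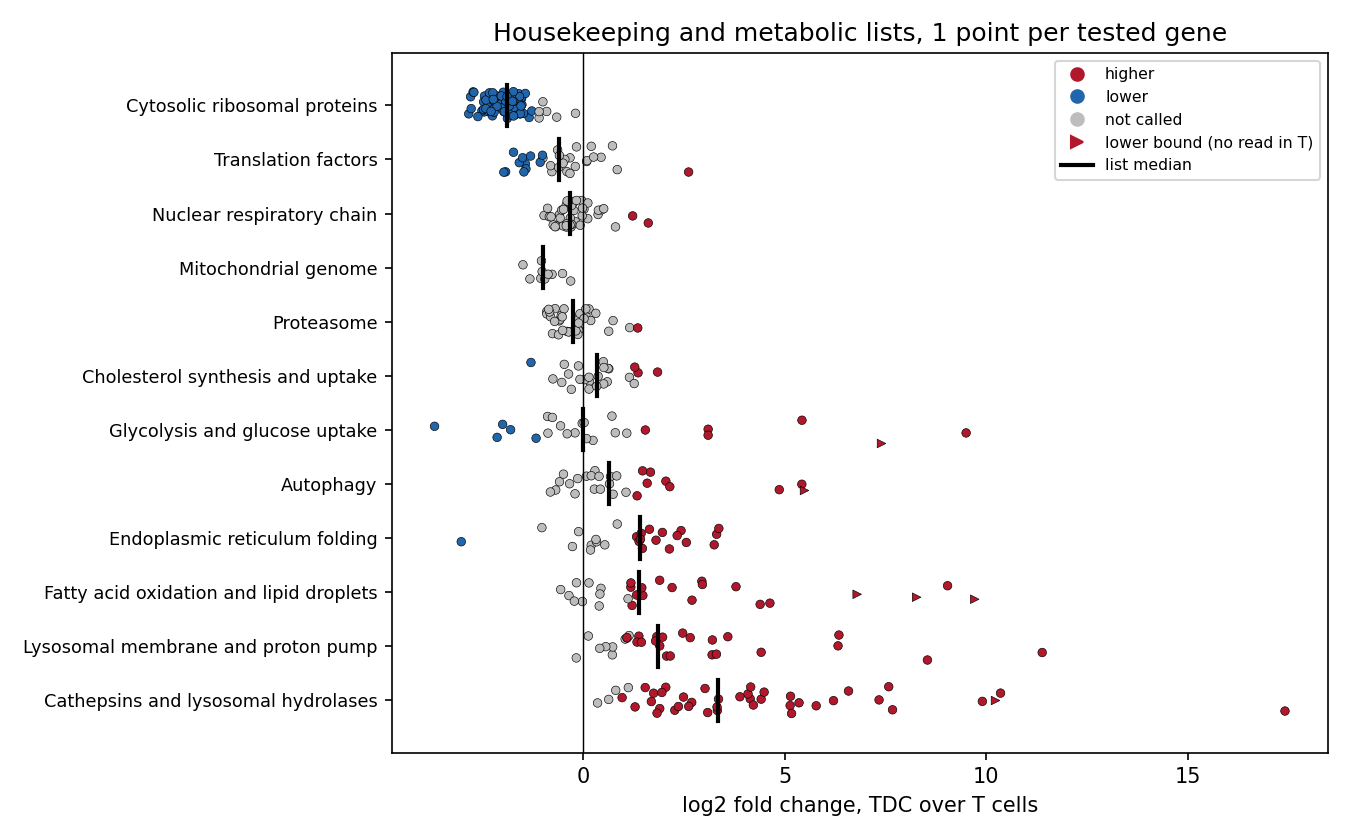
Log2 fold change of TDC over T cells (horizontal axis) for each tested gene of 12 housekeeping and metabolic lists, coloured by call, with the list median as a black bar and lower bounds as triangles. Ribosomal protein genes lie to the left of 0 around a median of -1.87, respiratory chain and proteasome genes around medians of -0.31 and -0.25, and lysosomal genes to the right.

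Immediate early genes were higher in 11 of 22 cases. Fos had 575, 1115 and 665 CPM in T cells and 4154, 6601 and 4813 CPM in TDC (log2 fold change 2.73 ± 0.40, adjusted p = 0.000554) and Atf3 had 0.780, 4.25 and 0 CPM in T cells and 1069, 1254 and 584 CPM in TDC (log2 fold change 9.15 ± 1.27, adjusted p = 0.000422). Junb, of the same AP-1 family, had 3151, 3871 and 4062 CPM in T cells and 2389, 2669 and 1714 CPM in TDC and was not called (log2 fold change -0.71 ± 0.33, adjusted p = 0.114). These genes can be induced during tissue handling, and the part of handling was not tested. Of 16 heat shock genes 3 were higher and 1 lower, and the inducible pair Hspa1a and Hspa1b spread widely within groups. Hspa1b had 0.638, 180.1 and 210.4 CPM in T cells and 29.5, 2394 and 1683 CPM in TDC, an 81.3-fold range in TDC, and was not called (log2 fold change 3.39 ± 1.62, adjusted p = 0.128), while without TDC 1 it was higher (log2 fold change 3.97, adjusted p = 0.0457). It was low in both libraries of replicate 1, T 1 and TDC 1. Its near-copy Hspa1a followed the same pattern, with 1.35, 72.6 and 85.9 CPM in T cells and 39.2, 1477 and 897 CPM in TDC, and its call (log2 fold change 3.91 ± 1.39, adjusted p = 0.0494) was lost without T 1, T 2, T 3, TDC 2 or TDC 3 (adjusted p = 0.0655 to 0.121). Hspa8, a constitutive member, had 1015, 1414 and 1495 CPM in T cells and 1819, 3102 and 2314 CPM in TDC and was not called (log2 fold change 0.88 ± 0.34, adjusted p = 0.0668), but without TDC 1 was higher (log2 fold change 1.06, adjusted p = 0.0271).

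Interferon-stimulated genes were higher in 24 of 41 cases, but 3 were lower. Cxcl9, a chemokine induced by interferon gamma, had no read in any T library and 77.4, 75.4 and 146 CPM in TDC, at least 1788-fold higher (adjusted p = 2.08e-05), and Cxcl10 had 2.48, 3.36 and 1.75 CPM in T cells and 149, 134 and 159 CPM in TDC (log2 fold change 5.86 ± 0.39, adjusted p = 8.08e-06). Gbp4, a guanylate-binding protein, ran against them, with 198, 161 and 244 CPM in T cells and 19.5, 17.9 and 25.7 CPM in TDC (log2 fold change -3.25 ± 0.33, adjusted p = 6.55e-05), as did Zbp1, a sensor of nucleic acids (log2 fold change -2.61 ± 0.34, adjusted p = 0.000299), and Igtp, an immunity-related GTPase (log2 fold change -0.94 ± 0.30, adjusted p = 0.0337). The call of Igtp was lost without T 1, T 2, T 3, TDC 2 or TDC 3 (adjusted p = 0.0563 to 0.124). In class I presentation 2 of 16 members were higher, 3 lower and 11 not called, beside 24% higher and 15.3% lower among all genes tested. H2-D1 had 7237, 7668 and 6508 CPM in T cells and 10366, 6519 and 6413 CPM in TDC (log2 fold change 0.12 ± 0.34, adjusted p = 0.806). H2-Q7, a nonclassical class I gene whose reads are hard to part from those of H2-Q6, was lower, with 1158, 1118 and 1028 CPM in T cells and 68.98, 50.9 and 155 CPM in TDC (log2 fold change -3.59 ± 0.46, adjusted p = 0.000275). For class II, 10 of 12 were higher, and Cd74, the invariant chain, had 4.40, 22.2 and 6.03 CPM in T cells and 11819, 6197 and 6480.1 CPM in TDC (log2 fold change 9.55 ± 0.85, adjusted p = 3.46e-05). Conventional DC markers, which overlap this pathway in use, were higher in 8 of 10 cases and lower in 1, and their part was not tested. H2-Ob, which restrains peptide loading, was not called (log2 fold change -0.87 ± 0.59, adjusted p = 0.278), but without TDC 3 it was lower (log2 fold change -2.02, adjusted p = 0.00740). Cd86, a ligand of Cd28 and Ctla4, had 13.8, 16.2 and 20.1 CPM in T cells and 1647, 1517 and 1279.5 CPM in TDC (log2 fold change 6.47 ± 0.38, adjusted p = 6.46e-06), whereas the receptors Cd28 and Ctla4 themselves were lower (log2 fold changes -4.64 and -5.25).

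Of 34 tested genes of cytotoxic and effector T cells, 19 were lower and 7 higher, and of the 9 granule genes 7 were lower. Nkg7, a granule protein, had 392, 1194 and 625 CPM in T cells and 23.2, 4.59 and 13.97 CPM in TDC (log2 fold change -5.73 ± 0.70, adjusted p = 0.000204). Natural killer cell markers, some of them granule genes, summed to 112 to 153 CPM in T cells and 1.60 to 3.51 CPM in TDC, and their part in these values was not tested. Cd40lg, the helper ligand, had 166, 193 and 160.1 CPM in T cells and 1.17, 1.94 and 6.50 CPM in TDC (log2 fold change -5.75 ± 0.63, adjusted p = 0.000112). The members called higher included Cd44, a hyaluronan receptor, with 43.6, 49.7 and 59.8 CPM in T cells and 1002, 1339.7 and 1139 CPM in TDC (log2 fold change 4.51 ± 0.34, adjusted p = 1.34e-05), Ccl3 (log2 fold change 3.81 ± 0.76, adjusted p = 0.00322) and Ccl4 (log2 fold change 2.02 ± 0.60, adjusted p = 0.0242), genes that macrophages are also known to use. The call of Ccl4 was lost without T 1, T 3 or TDC 2 (adjusted p = 0.0544 to 0.0750). Tnf was higher by a small margin, with 27.7, 31.99 and 29.8 CPM in T cells and 83.6, 54.6 and 43.9 CPM in TDC (log2 fold change 1.02 ± 0.34, adjusted p = 0.0383), a call lost without T 1, T 2, T 3, TDC 1 or TDC 2 (adjusted p = 0.0634 to 0.112). Inhibitory receptors divided 8 higher to 5 lower of 15. Ctla4 and Pdcd1 (PD-1) were lower, with 119.96, 137 and 61.1 CPM in T cells and 1.53, 3.43 and 3.29 CPM in TDC for Ctla4 and 9.43, 22.5 and 22.3 CPM in T cells and 0.180, 0.719 and 0 CPM in TDC for Pdcd1 (adjusted p = 5.11e-05 and 0.00143). Lair1, a collagen receptor of many leukocytes, had 20.9, 14.7 and 26.6 CPM in T cells and 698, 499 and 509 CPM in TDC (log2 fold change 4.78 ± 0.38, adjusted p = 1.80e-05), and Cd244 had 0.851, 2.67 and 1.75 CPM in T cells and 279, 167 and 143 CPM in TDC (log2 fold change 6.78 ± 0.54, adjusted p = 1.94e-05). Btla was not called, with 130.03, 62.3 and 75.7 CPM in T cells and 6.20, 9.63 and 52.9 CPM in TDC and TDC 3 far above the other two (log2 fold change -1.96 ± 0.73, adjusted p = 0.0592). Without TDC 3, Btla was lower (log2 fold change -3.47, adjusted p = 0.00117).

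Of 19 chemokine receptors, 8 were higher and 7 lower. Ccr3 had no read in any T library and 1493, 1379 and 869 CPM in TDC, at least 22348-fold higher (adjusted p = 7.05e-06). Markers of mast cells, basophils and eosinophils, cells known for this receptor, summed to at most 0.448 CPM in any TDC library. The part of these cells in the Ccr3 reads was not tested. Cxcr3, a receptor of effector T cells, was lower, with 62.5, 147 and 105 CPM in T cells and 19.9, 13.7 and 17.03 CPM in TDC (log2 fold change -2.64 ± 0.39, adjusted p = 0.000639). Of 17 ligands 15 were higher, among them Ccl6, with no read in any T library and 606, 274 and 203 CPM in TDC, at least 6469.9-fold higher (adjusted p = 2.57e-05). Xcl1, made by T and natural killer cells, was lower (log2 fold change -6.26 ± 0.81, adjusted p = 0.000272). Among integrins, Itgad, the alpha D chain of red pulp macrophages, had 0.993, 1.58 and 1.34 CPM in T cells and 751, 2066 and 1214 CPM in TDC (log2 fold change 9.99 ± 0.59, adjusted p = 6.78e-06). Itgb7, a beta chain of gut homing, had 997, 902 and 1184 CPM in T cells and 48.6, 33.6 and 147 CPM in TDC (log2 fold change -3.75 ± 0.57, adjusted p = 0.000687). Selplg, the selectin ligand, was not called, with 1018, 1198 and 1144 CPM in T cells and 1042, 857 and 894 CPM in TDC (log2 fold change -0.27 ± 0.29, adjusted p = 0.504).

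Genes of lipid mediators were higher in 13 of 19 cases. Hpgd, which inactivates prostaglandins, had no read in any T library and 1805, 1399 and 1649.5 CPM in TDC, at least 28994-fold higher (adjusted p = 6.46e-06). Ptgis, prostacyclin synthase, had no read in any T library and 327, 249 and 237 CPM in TDC, at least 4855-fold higher (adjusted p = 7.05e-06). So 1 gene of synthesis and 1 of breakdown were both high. Of 12 tested genes of prostaglandins and related prostanoids, 8 were higher and 4 were not called. Lta4h, leukotriene A4 hydrolase, was the one member lower (log2 fold change -1.14 ± 0.30, adjusted p = 0.0136), a call lost without T 3 or TDC 2 (adjusted p = 0.0530 to 0.0645). Regulators of small GTPases known from lymphocytes were lower in 9 of 24 cases and higher in 3. Coro1a, coronin 1A, had 2430.4, 3075 and 3092 CPM in T cells and 241, 114 and 479 CPM in TDC (log2 fold change -3.36 ± 0.52, adjusted p = 0.000829), and Rasal3, a Ras inhibitor of T cells, had 588, 403 and 794 CPM in T cells and 18.4, 38.4 and 70.4 CPM in TDC (log2 fold change -3.81 ± 0.53, adjusted p = 0.000435). Rgs1, which dampens chemokine receptors, had 230.5, 478 and 188 CPM in T cells and 10321, 2781 and 3259 CPM in TDC (log2 fold change 4.19 ± 0.64, adjusted p = 0.000765), with TDC 1 over 3-fold above the other TDC libraries. Gnai2, the G protein alpha chain on which Rgs1 acts, was not called (log2 fold change 0.28 ± 0.28, adjusted p = 0.472). Cell cycle genes were mostly uncalled, with 3 higher and 5 lower of 45. Cdkn2d, an inhibitor of cyclin-dependent kinases, was lower (log2 fold change -3.31 ± 0.47, adjusted p = 0.000470).

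Gene by gene, the 3 TDC libraries agreed less than the T libraries. Among 4174 tested genes at 50 CPM or more in TDC, the median ratio of the highest to the lowest TDC library was 1.80, and 60.8% were within 2-fold. In T cells the same figures were 1.51 and 87.5% of 3562 genes. 8 genes spread by more than 10-fold in TDC. Besides the Hspa1 pair, Col14a1, a collagen, had 11.2, 137 and 14.6 CPM, and Fn1, fibronectin, had 22.1, 175 and 16.4 CPM, both high in TDC 2. Tspan10, a tetraspanin, had 11.9, 59.1 and 139 CPM. Cx3cr1, the fractalkine receptor, spread slightly less, by 9.79-fold, with 17.8, 80.7 and 174 CPM. Both were highest in TDC 3 and lowest in TDC 1. Monocyte markers summed to 47.1, 64.97 and 145 CPM and conventional DC markers to 317, 299 and 668 CPM, also highest in TDC 3. In T cells the sums were higher, at 301, 774 and 444 CPM and 1702, 1232 and 1047 CPM. Ly6c2 and Ccr7, members of these sums, were lower in TDC, and the monocyte marker F13a1 was highest in TDC 2. The part of monocytes and DC in the Tspan10 and Cx3cr1 values was not tested. Summed stromal markers were 2.42, 11.9 and 8.67 CPM, mostly from Pdgfrb (2.42, 11.3 and 7.02 CPM). In TDC 2, Col1a1, Col1a2, Col3a1, Dcn and Tek had no read, and Ccl19, Cdh5 and Kdr had at most 0.387 CPM. The part of stromal cells in the collagen and fibronectin values was not tested. Of the called genes, Timd4, Gusb, a lysosomal glucuronidase (260.2, 250.5 and 258 CPM, log2 fold change 2.06 ± 0.27, adjusted p = 0.000283), Tkt, transketolase (314, 314 and 325 CPM, log2 fold change 1.59 ± 0.29, adjusted p = 0.00175), and Mcoln1, a lysosomal calcium channel (117, 116 and 117 CPM, log2 fold change 1.09 ± 0.28, adjusted p = 0.0114), were nearly equal across the TDC libraries. So was Sae1, of an enzyme that activates the protein SUMO, which was lower (83.6, 82.02 and 85.2 CPM, log2 fold change -0.94 ± 0.27, adjusted p = 0.0211). Its call was lost without T 2, T 3, TDC 2 or TDC 3 (adjusted p = 0.0576 to 0.0898).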

How the data were processed

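The 6 libraries were TDC and T cells in 3 pools each, taken from samples named by their titles. A ReliaPrep kit and Lexogen Stranded QuantSeq, which reads transcript 3' ends, were used, per the labels' protocols. The authors deposited whole-number read counts per gene symbol, not normalised. Per the submitters' processing notes, FastQC, MultiQC, Trimmomatic, STAR and featureCounts were used, with no versions, and the human build hg38 is named although the gene symbols are mouse. The sources used here do not give the annotation or say whether counting used strand. Overlapping genes, antisense genes and near-copies are therefore uncertain. 26 symbols read as dates, as a spreadsheet writes them, and were left so.

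Counts of the 6 libraries were tested with edgeR 4.0.16 (R 4.3.3, limma 3.58.1): filterByExpr (minimum count 10, minimum total 15) kept 13582 of 50508 genes, followed by TMM, a robust quasi-likelihood fit with 4 residual degrees of freedom (common biological coefficient of variation 0.485) and Benjamini-Hochberg adjustment over all tested genes at 0.05. On simulated counts of 13087 genes, the test recovered 0 of 64 genes changed 2-fold, 25 of 70 changed 4-fold and 47 of 66 changed 8-fold, with 3 false calls. The share of genes changed in the simulation was far smaller than the share called in the data. Folds against a group without reads are lower bounds from 3 reads over the group. The depth is given with the results. Libraries of a group differed by chi-square values per degree of freedom of 67.9 to 253, so none repeated another within sampling noise. T-enriched genes were set on a separate scaling of all 9 libraries. Transcript lengths and gene positions come from GENCODE vM21 (GRCm38), and promoters from RefSeq (GRCm38.p6).

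The comparison, the members and the gene lists were chosen with earlier results of these data known. Of 1149 genes in the 44 lists, 1141 were in the table and 1086 were tested. A named gene was among the 12 called genes per direction with the largest difference in CPM and at least a 4-fold change without overlap, the 4 called list members per direction with the smallest adjusted p, called members that ran against their list, the 2 uncalled members per list with the highest level, the T-enriched genes with the highest and lowest ratio, the genes with the largest and smallest spread among TDC, the given markers, or Zbtb46. Of these the text gives a part, and some are not reported here. Bcl10, Blnk, Cd28, Cd4, Cd8a, Fcer1g, Hk2, Icos, Plcg1, Plcg2, Ptpn6, Syk, Tyrobp and Vav1 were chosen after their values were seen. Alternatives were other scalings and filters, DESeq2 1.42.0, limma-voom, glmTreat, a fit of all 3 groups, a replicate block, and leaving out each library, or TDC 1 and T 2 together, which was added after the data were seen.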

Additional observations from a re-analysis of the deposited data

How the results depend on the processing

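No gene called higher was called lower under any alternative, or the reverse. The number of genes lower was 3870 with library size only and 1150 against a log2 fold change of 1 (glmTreat), in place of 2076. T-enriched genes that were not lower numbered 76 with glmTreat and 89 with all 3 groups in the fit, in place of 50. Without 1 library, genes higher ranged from 2815 to 3673, genes lower from 1493 to 2557, lists with more than 50% of their members called in the same direction from 28 to 30, and T-enriched genes not lower from 47 to 72. All other alternatives left these 4 counts within 1.5 times. The cause of these shifts was not tested, other than that glmTreat asks for a larger change.

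Replicate numbers are shared between TDC and T cells, and same-numbered libraries share a code and a pool size in the labels, which do not say whether they came from the same mice. Deviations of same-numbered libraries correlated at -0.0692, -0.180 and -0.00657, and no library correlated best with its own number. The highest value, 0.187, was that of T 2 with TDC 1, which both departed by transcript length. This check over all genes therefore cannot decide whether the libraries are paired. The main fit left the numbers out. With the replicate block 2854 genes were higher and 1513 lower. Of the genes named, Cd84, Icos, Igtp, Lcp2, Mcoln1, Ptpn6, Sae1 and Tnf lost the call with it (adjusted p = 0.0526 to 0.120), while Btla was called lower and Hspa1b higher (adjusted p = 0.0141 and 0.000157).

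Of genes named as not called, some changed sign in log2 fold change, and none of these reversed values was called. With library size only this held for Aldoa (-0.37), Fyb (-0.20), Gnai2 (-0.33), H2-D1 (-0.50), Myd88 (-0.016), Nfatc3 (-0.39) and Rac1 (-0.098), with upper-quartile factors for H2-D1 (-0.11) and Nfatc3 (-0.048), and without both TDC 1 and T 2 for H2-D1 (-0.083). With 1 library left out, the values spanned -0.085 to 0.44 for Aldoa, -0.41 to 0.15 for Atp6v1d, -0.68 to 0.053 for Cd4, -0.13 to 0.26 for H2-D1, -0.99 to 0.0071 for Jak1, -0.37 to 0.20 for Klf2, -0.53 to 0.12 for Nfatc1, -0.19 to 0.47 for Nfatc3, -0.25 to 0.12 for Nr1h2 and -0.35 to 0.11 for Slfn2. Of the called genes named, Actn1, Ccl4, Cd84, Hspa1a, Lcp2, Mcoln1, Pkp4, Ptpn6 and Tnf lost the call with library size only, and Cd84, Hspa1a, Lcp2, Ptpn6 and Tnf with upper-quartile factors. With all 3 groups in the fit, Ccl4, Cd84, Ephx1, Hspa1a, Icos, Pkp4, Plcg1, Tnf and Trib3 lost the call (adjusted p = 0.0585 to 0.445). Without a filter on low counts Cd84, Fn1, Hspa1a and Tnf lost it, and with limma-voom Hspa1a did. Without both TDC 1 and T 2, Cd84, Hspa1a, Icos, Pkp4 and Tnf lost it. With glmTreat 17 of the genes named did. Other genes named as not called gained a call without a change of sign. With library size only, Acaa2, Atf4, Atp5b, Bcl10, Btla, Fyn, Junb, Ldha, Map1lc3b, mt-Cytb, Rps9, Selplg and Slfn2 were called lower, and with upper-quartile factors Atf4, Btla, Junb, Ldha and Rps9 were. limma-voom called Atf4, Btla, Junb, Ldha and Rps9 lower and Hspa8 and Mcl1 higher, and DESeq2 called Btla, Ldha and Rps9 lower and Hspa8 and Mcl1 higher. Without a filter on low counts Atf4 and Rps9 were called lower, with a mean of at least 10 CPM in 1 group Btla lower, and with all 3 groups in the fit Mcl1 higher. Without both TDC 1 and T 2, Atf4, Ldha and Rps9 were called lower and Hspa8 higher. Vav1, shown among the signalling genes, was called higher without TDC 1 (log2 fold change 0.78, adjusted p = 0.0412). Ptpn6, shown there too, lost its call without T 1, T 2, T 3 or TDC 3 (adjusted p = 0.0536 to 0.0726). On simulated counts, 0 of 64 changes of 2-fold were recovered, but few genes were changed there. In the data 39.3% of genes were called, so the simulation cannot give the reach of the test here. Some named genes were called below 2-fold, such as Cd84 (log2 fold change 0.87) and Igtp (-0.94). Both calls were lost in some fits without 1 library, and genes that were not called may still have changed.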
